A study of Mus musculus with 23 samples.

Results

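AA467197, Psca, Mal, Cldn17, 2300002M23Rik and Wfdc2 are 6 genes of the lining side of stratified and glandular epithelia. They were chosen from these same arrays because their levels fell strongly in oral tumours without Notch1, so the falls themselves are described here and not tested. The array names 16593 genes with 25697 probes, and the 6 genes have 8 of those probes: Mal and Wfdc2 have 2 each and the others 1. All 8 probes were detected on enough arrays to be kept, and 9732 genes in all were compared.

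Messenger RNA was measured on Illumina MouseRef-8 v2 arrays in 23 oral tumours, 1 array each, from mice of the C57BL/6 strain after 21 days of growth. The groups were KHR with no Notch1 change in the label (n = 5), KHR-N+/- with 1 copy of Notch1 (n = 4), KHR-N-/- with none (n = 5), KR-N+/- (n = 5) and KR-N-/- (n = 4). The labels do not expand KHR and KR, the alleles or agents behind these codes, or the animals the tumours came from, and p-values therefore measure only the spread between these tumours. No KR tumour with intact Notch1 was analysed here, so the fall in the KR type can be read only against tumours with 1 copy, and the KHR type offers both references. No label names the promoter or cell type behind any recombination.

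Notch1 is a receptor that is cut after it meets a ligand on a neighbouring cell, and its freed inner part joins the DNA-binding protein RBPJ to switch on target genes. In stratified epithelia it is known for moving cells from the basal layer toward differentiation. The oral lining is a stratified epithelium whose upper cells express keratins 4 and 13, small proline-rich proteins, tight junction proteins and membrane and secreted proteins of mucosal surfaces. Claudins seal the space between cells, MAL proteins sort membrane rafts to the apical side, the Ly6 family is attached to the outer membrane by a lipid anchor, and proteins with a whey acidic protein (WAP) domain are secreted and often inhibit proteases.

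By RefSeq's annotation of build GRCm38.p6, 3 of the 6 genes lie on chromosome 2, as Notch1 does. AA467197 (also listed as Nmes1) spans 122637887 to 122641076 on the plus strand, Mal spans 127633226 to 127656695 on the minus strand, and Wfdc2 spans 164562715 to 164568510 on the plus strand. Psca lies on chromosome 15 from 74714839 to 74717065. Cldn17 lies on chromosome 16 from 88505807 to 88506978 on the minus strand, and 2300002M23Rik on chromosome 17 from 35567485 to 35568945 on the plus strand. The microRNA gene Mir147 lies inside AA467197. The mature form of its 5p arm is shown because it shares the locus, and the other arm is not shown. The array has no value for this microRNA here. The capitals mark the seed, bases 2 to 8.
mmu-miR-147-5p: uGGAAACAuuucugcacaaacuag

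RefSeq's promoter table covers 250 bases before to 50 bases after the annotated start, and 5 of the 6 genes were matched in it, without Psca. The letters TGGGAA, the core that RBPJ binds, were searched on both strands because Notch1 acts through RBPJ. They occur in 3 of the 5 windows and in 25.6% of all 32817 promoter windows of the same length. In Cldn17 the match is on the gene's own strand and begins 117 bases before the start. In 2300002M23Rik and Wfdc2 it is on the other strand, 19 and 172 bases before the start, and reads TTCCCA on the strand printed. AA467197 has no TGGGAA but holds TGANTCA, the motif of AP-1 factors, beginning 73 bases before its start, which 7.8% of all windows hold. None of the 5 windows holds AACCNGTT (grainyhead-like factors) or TATAAA (the core promoter box of that name), which occur in 2.1% and 13.6% of all windows, and Mal holds none of the 4 motifs. A match describes letters and is no evidence of binding. The windows with a match are shown 5′ to 3′ on the strand of the gene, with the match in capitals, at chr2:122637637-122637936 for AA467197, chr16:88506929-88507228 for Cldn17, chr17:35567235-35567534 for 2300002M23Rik and chr2:164562465-164562764 for Wfdc2. A second Wfdc2 start in the table differs by 1 base and holds the same match.
AA467197: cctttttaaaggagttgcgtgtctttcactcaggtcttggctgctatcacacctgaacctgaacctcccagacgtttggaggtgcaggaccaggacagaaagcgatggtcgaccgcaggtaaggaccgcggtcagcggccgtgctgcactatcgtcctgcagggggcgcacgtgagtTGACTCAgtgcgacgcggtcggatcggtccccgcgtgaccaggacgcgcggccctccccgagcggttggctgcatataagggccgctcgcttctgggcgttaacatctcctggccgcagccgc
Cldn17: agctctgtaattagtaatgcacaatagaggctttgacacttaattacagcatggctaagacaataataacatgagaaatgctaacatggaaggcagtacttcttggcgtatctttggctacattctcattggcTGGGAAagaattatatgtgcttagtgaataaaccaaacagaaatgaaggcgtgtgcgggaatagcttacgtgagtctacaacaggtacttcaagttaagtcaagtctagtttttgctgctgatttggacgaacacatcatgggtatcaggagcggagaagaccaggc
2300002M23Rik: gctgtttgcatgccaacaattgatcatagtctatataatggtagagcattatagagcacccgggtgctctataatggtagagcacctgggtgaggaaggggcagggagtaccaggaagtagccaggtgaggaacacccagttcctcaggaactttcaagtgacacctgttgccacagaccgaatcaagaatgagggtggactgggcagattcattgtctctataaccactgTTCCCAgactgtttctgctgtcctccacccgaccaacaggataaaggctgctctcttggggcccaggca
Wfdc2: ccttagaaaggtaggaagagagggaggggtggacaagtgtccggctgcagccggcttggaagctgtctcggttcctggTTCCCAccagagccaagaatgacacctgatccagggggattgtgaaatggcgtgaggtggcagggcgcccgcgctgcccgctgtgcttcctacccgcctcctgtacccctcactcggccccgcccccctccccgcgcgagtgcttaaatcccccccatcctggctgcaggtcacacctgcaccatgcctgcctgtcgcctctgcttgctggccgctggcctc

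Arrays had mean intensities of 142.4 to 366.4, 10353 to 12654 probes were detected on an array at a detection p-value under 0.05, and the number of arrays limits the precision. All levels below are log2 intensities after background correction and quantile normalization, so a gene's level is set against the rest of its array, and levels of different genes are not compared. Notch1 itself, read by 1 probe that no source places inside or outside the deleted part, had levels of 7.81 to 8.67 in KHR, 7.44 to 8.13 in KR-N+/-, 5.40 to 5.80 in KHR-N-/- and 5.61 to 6.52 in KR-N-/-. In KHR-N+/- it was 6.60, 7.52, 5.68 and 7.40, and the library labelled KHR-N+/- replicate 3 thus had a level between the lowest and highest KHR-N-/- array. KHR replicate 4 stood apart from the other KHR arrays on 4 of the 6 genes although its Notch1 level was 8.66, and KHR replicate 5 was the lowest KHR array for 2300002M23Rik and for the mean of the wider surface list. The falls of the 6 genes that rest on these 3 arrays are given below with and without them. Dixon's outlier test on the most extreme array of each group flagged none for any of the 6 genes. For KHR replicate 4 its q was 0.485 to 0.66 on the 4 genes. In whole tumours, fewer cells of a type and less RNA per cell cannot be told apart.

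**Figure D1:**
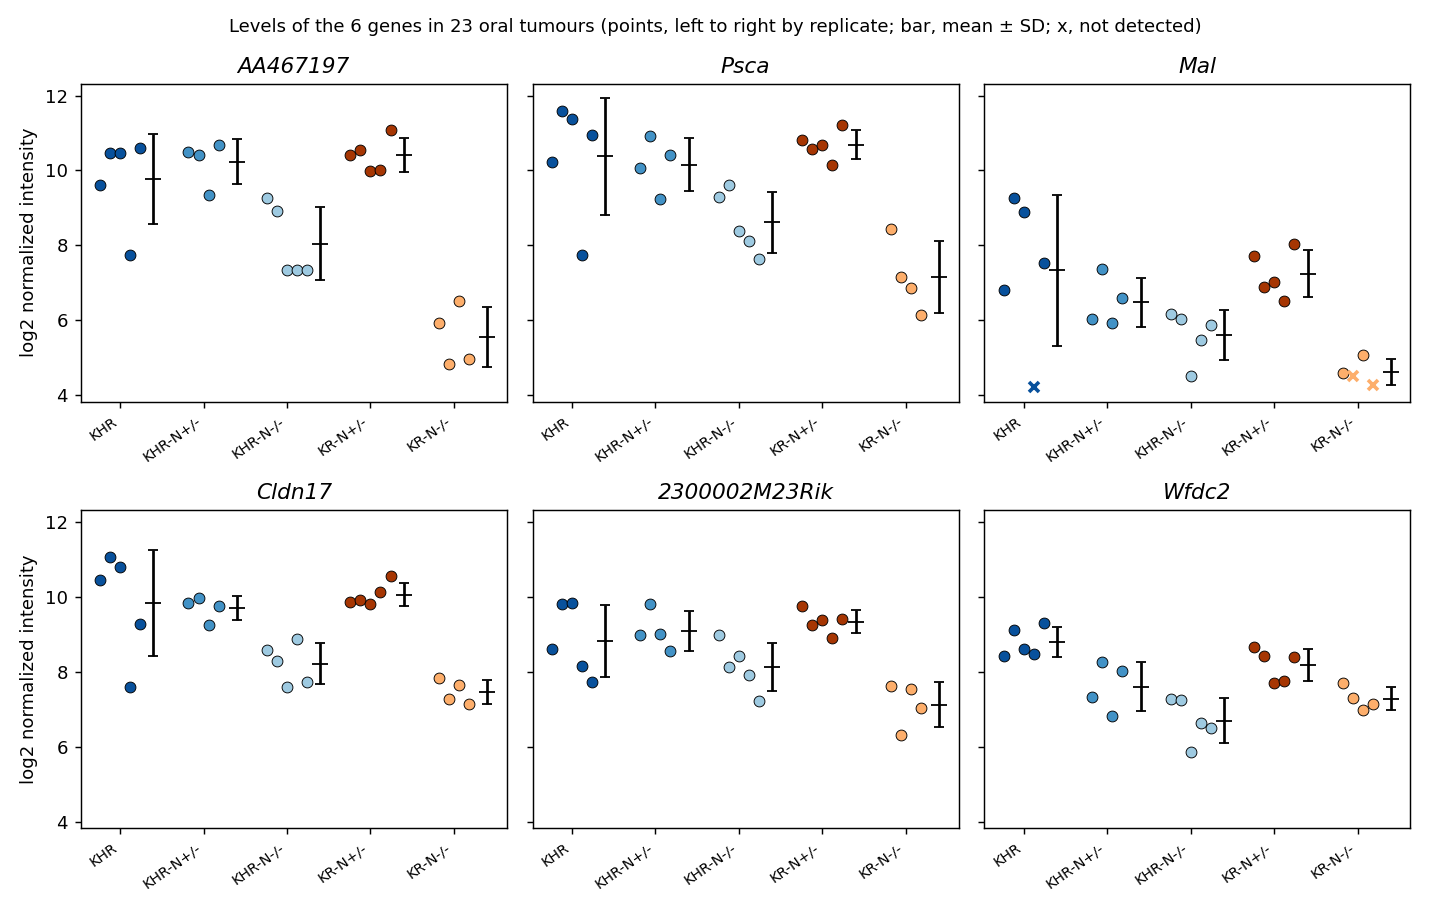
Log2 normalized intensity (vertical axis) of the 6 genes in each of the 23 tumours, by group (horizontal axis). Points are arrays, bars are the group mean ± SD, and crosses mark arrays on which the probe was not detected. For each gene the 4 KR-N-/- arrays lie below the 5 KR-N+/- arrays, whereas KHR replicate 4 puts the KHR group in overlap with KHR-N-/- for AA467197, Psca, Mal and Cldn17.

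AA467197 encodes a small protein first known from normal oesophageal mucosa, and its human counterpart is C15orf48. Its level was 10.42, 10.54, 9.98, 10.00 and 11.08 in the 5 KR-N+/- tumours. In the 4 KR-N-/- tumours it was 5.91, 4.84, 6.53 and 4.96. The groups were far apart, with a mean of 10.40 ± 0.45 (SD, n = 5) against 5.56 ± 0.80 (SD, n = 4), a 28.7-fold lower level without Notch1 (log2 -4.84, SE 0.51) and the largest fall of all 9732 genes at these settings. The size of this fall depended on the background correction: it was 11.6-fold with none (log2 -3.54), 16.5-fold with an offset of 50 (log2 -4.04) and 45.7-fold with the authors' processed values (log2 -5.51). The probe was detected on all 4 KR-N-/- arrays, the lowest of which were close to background. KHR tumours had levels of 9.62, 10.48, 10.46, 7.74 and 10.59, and KHR-N+/- tumours had 10.50, 10.41, 9.34 and 10.69. In KHR-N-/- tumours the level was 9.27, 8.93, 7.35, 7.34 and 7.35. All KHR-N-/- arrays were below all KHR-N+/- arrays, and replicates 3 to 5 lay well below replicates 1 and 2. The fall was 4.56-fold against KHR-N+/- (log2 -2.19, SE 0.51) and 3.32-fold against KHR (log2 -1.73, SE 0.48). Every KHR-N-/- array was nevertheless above every KR-N-/- array, with means 5.60-fold apart (log2 2.49, SE 0.51).

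Psca encodes a small membrane protein of the Ly6 family, named for the human prostate cancers in which it was found. Its level in KR-N+/- tumours was 10.82, 10.56, 10.67, 10.16 and 11.23. In KR-N-/- tumours it was 8.44, 7.16, 6.87 and 6.15. These groups did not overlap, and the fall was 11.6-fold (log2 -3.53, SE 0.58), and 7.66-fold with no background correction (log2 -2.94). In the KHR type the tumours with intact Notch1 had 10.22, 11.59, 11.37, 7.75 and 10.95, and those with 1 copy had 10.08, 10.92, 9.22 and 10.41. KHR-N-/- tumours had 9.29, 9.62, 8.39, 8.12 and 7.64. The highest of them lay above KHR-N+/- replicate 3 and KHR replicate 4 and below the other 7 arrays with Notch1. The fall was 2.92-fold against KHR-N+/- (log2 -1.55, SE 0.58) and 3.39-fold against KHR (log2 -1.76, SE 0.55).

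Mal encodes a membrane proteolipid that carries cargo to the apical surface. Its brighter probe gave 7.73, 6.89, 7.02, 6.51 and 8.05 in KR-N+/- tumours. In KR-N-/- tumours it gave 4.60, 4.50, 5.08 and 4.27, and it was detected on 2 of those 4 arrays. The fall of 6.17-fold (log2 -2.62, SE 0.64) therefore ends near background, and it was 2.38-fold with no background correction (log2 -1.25). In KHR tumours the level was 6.81, 9.27, 8.90, 4.21 and 7.52, the widest spread of the 6 genes within a group (SD 2.02), and the probe was not detected on KHR replicate 4. KHR-N+/- tumours had 6.02, 7.36, 5.94 and 6.58, and KHR-N-/- tumours had 6.17, 6.04, 4.52, 5.46 and 5.88. The last 2 groups overlapped, and the fall between them was 1.81-fold (log2 -0.86, SE 0.64), against 3.30-fold from KHR (log2 -1.72, SE 0.61). The dimmer Mal probe gave smaller values, -1.29 (SE 0.59) in the KR type and -0.84 (SE 0.59) and -1.17 (SE 0.56) in the KHR type against KHR-N+/- and KHR.

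Cldn17 encodes a claudin of the tight junction. It had a level of 9.86, 9.93, 9.82, 10.12 and 10.57 in KR-N+/- tumours. KR-N-/- tumours had 7.82, 7.27, 7.64 and 7.13. Both groups were tight, with SDs of 0.31 and 0.32, and the fall was 6.03-fold (log2 -2.59, SE 0.45). The KHR-N+/- levels of 9.84, 9.96, 9.24 and 9.77 were also close together. KHR-N-/- levels of 8.59, 8.27, 7.60, 8.89 and 7.74 were all below them, a 2.80-fold fall (log2 -1.48, SE 0.45). KHR tumours had 10.44, 11.06, 10.79, 7.59 and 9.28, with replicate 4 level with the lowest KHR-N-/- array, and the fall against them was 3.06-fold (log2 -1.62, SE 0.42).

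The gene 2300002M23Rik, listed in RefSeq also as Stg, neighbours Cdsn, the gene of the cornified cell adhesion protein corneodesmosin. Levels of 9.74, 9.26, 9.38, 8.91 and 9.40 were measured in KR-N+/- tumours. KR-N-/- tumours had 7.62, 6.30, 7.54 and 7.03. The groups were separate, and the fall was 4.64-fold (log2 -2.21, SE 0.39). In KHR-N+/- tumours the levels were 8.98, 9.81, 9.02 and 8.55, and in KHR-N-/- tumours 8.98, 8.12, 8.41, 7.91 and 7.23. KHR tumours had 8.60, 9.81, 9.83, 8.15 and 7.74. Here the KHR-type groups all overlapped, and the falls were 1.95-fold against KHR-N+/- (log2 -0.96, SE 0.39) and 1.62-fold against KHR (log2 -0.69, SE 0.37).

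Wfdc2 encodes a secreted protein with WAP domains, known in human medicine as HE4. Its brighter probe gave 8.65, 8.43, 7.69, 7.76 and 8.39 in KR-N+/- tumours and 7.69, 7.31, 6.99 and 7.14 in KR-N-/- tumours. The lowest KR-N+/- and the highest KR-N-/- array were both at 7.69, and the fall was 1.87-fold (log2 -0.90, SE 0.30). KHR tumours had 8.43, 9.12, 8.61, 8.46 and 9.31, and replicate 4 was not low. KHR-N+/- tumours had 7.32, 8.25, 6.81 and 8.01, and KHR-N-/- tumours had 7.27, 7.26, 5.85, 6.62 and 6.49. The group means were 8.79, 7.60 and 6.70, with overlap between the last 2 groups, and Wfdc2 alone of the 6 genes was lower in all KHR-N-/- than in all KHR arrays. The fall was 4.25-fold from KHR (log2 -2.09, SE 0.28) and 1.87-fold from KHR-N+/- (log2 -0.90, SE 0.30). With the mean of both probes the fall from KHR was 2.66-fold (log2 -1.41). The dimmer Wfdc2 probe, not detected on 2 of 5 KHR-N-/- and 1 of 4 KR-N-/- arrays, gave differences of -0.49 (SE 0.19) in the KR type, -0.74 (SE 0.18) against KHR and -0.28 (SE 0.19) against KHR-N+/-.

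**Figure D2:**
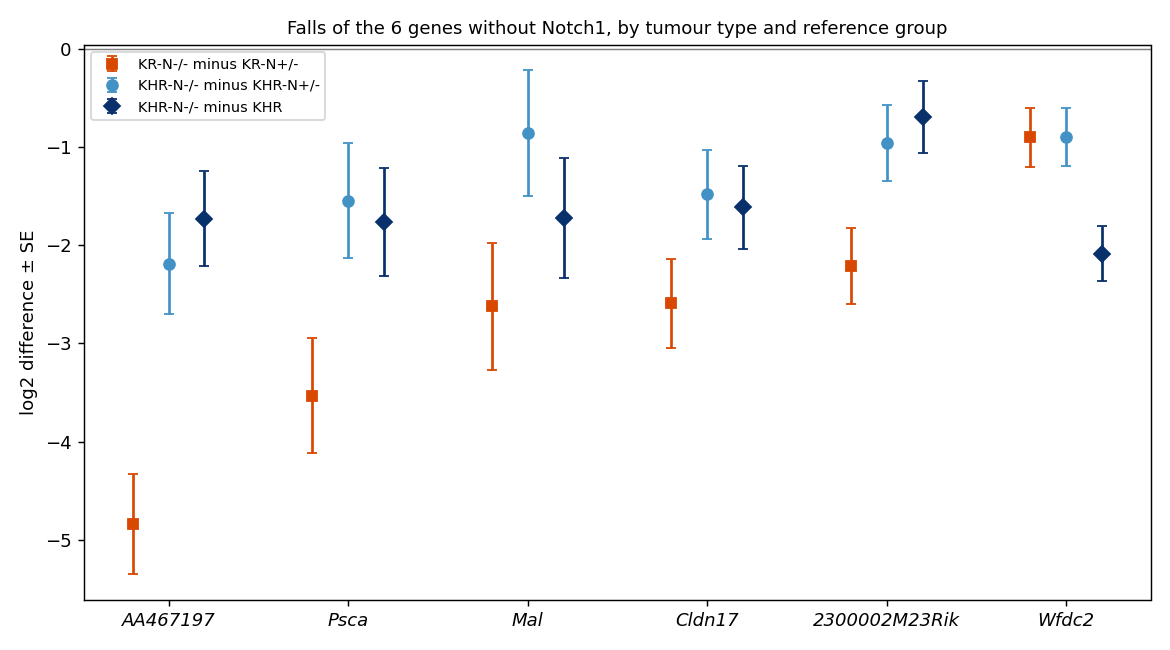
Log2 difference ± SE (vertical axis) of each gene for KR-N-/- minus KR-N+/- (squares), KHR-N-/- minus KHR-N+/- (circles) and KHR-N-/- minus KHR (diamonds). The KR squares run from -4.84 for AA467197 to -0.90 for Wfdc2, and the KHR circles from -2.19 to -0.86.

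Against tumours with 1 copy of Notch1, the fall in the KHR type was smaller than in the KR type for 5 of the 6 genes. The difference between the falls, KHR type minus KR type, was 2.65 (SE 0.72) for AA467197, 1.99 (SE 0.82) for Psca, 1.77 (SE 0.91) for Mal, 1.11 (SE 0.64) for Cldn17 and 1.25 (SE 0.55) for 2300002M23Rik. On the log2 scale the KHR-type fall of these 5 genes was 32.7% to 57.2% of the KR-type fall, the lowest share being that of Mal's brighter probe. The dimmer Mal probe gave 65.3% and a difference between the falls of 0.45 (SE 0.84). For Wfdc2 the falls were -0.90 in both types and differed by 0.00 (SE 0.42), and its dimmer probe gave a difference of 0.21 (SE 0.28). These values are a description: the genes were chosen on these falls, and a choice that favours large KR-type falls also favours a larger fall there than in the KHR type. The difference was smaller with no background correction, at 1.66 for AA467197 and 0.84 for Mal. Notch1 itself was lower in KHR-N+/- than in KR-N+/- tumours (-0.92, SE 0.27, adjusted p = 0.0465 by limma). Its own fall was -1.13 (SE 0.27) in the KHR type and -1.70 (SE 0.27) in the KR type, a difference of 0.57 (SE 0.38). The references with 1 copy thus differed in Notch1 level, and the part of this in the falls was not tested.

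Without KHR-N+/- replicate 3 the KHR-type falls were larger, at -2.49 for AA467197, -1.86 for Psca, -1.04 for Mal, -1.64 for Cldn17, -0.98 for 2300002M23Rik and -1.16 for Wfdc2, with a median of -1.40. They were still smaller than the KR-type falls for the same 5 genes, by 0.96 for Cldn17 to 2.36 for AA467197. For Wfdc2 the KHR-type fall was then the larger, by 0.26 (difference -0.26, SE 0.41). With all arrays the median fall of the 6 genes was -2.61 in the KR type and -1.22 in the KHR type, where the medians of all 9732 genes were 0.04 and 0.01. These comparisons share no arrays. The KHR-type fall against intact KHR tumours had a median of -1.73, and it shares the KHR-N-/- arrays with the comparison against 1 copy.

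Since the genes were picked on these falls, the counts of separate groups are descriptive. In the KR type all 6 genes were lower on every KR-N-/- array than on any KR-N+/- array, which held for 7.67% of all genes. In the KHR type 2 genes (AA467197 and Cldn17) were so separated from KHR-N+/-, against 2% of all genes, and 1 (Wfdc2) from KHR, against 1.98%. Without KHR replicate 4 the lowest remaining KHR array was above the highest KHR-N-/- array for 5 of the 6 genes, at 9.62 against 9.27 for AA467197, 10.22 against 9.62 for Psca, 6.81 against 6.17 for Mal, 9.28 against 8.89 for Cldn17 and 8.43 against 7.27 for Wfdc2. The median fall against KHR was then -2.21. The falls of Psca and Mal grew most, to 5.35-fold and 5.68-fold (log2 -2.42 and -2.51), and the others were -0.86 to -2.24. For 2300002M23Rik the ranges still overlapped, with 7.74 in KHR replicate 5 and 8.98 as the highest KHR-N-/- level, and its fall was -0.97 without replicate 5 alone. The falls of the other genes against KHR without replicate 5 alone were -1.53 for AA467197, -1.62 for Psca, -1.68 for Mal, -1.755 for Cldn17 and -1.96 for Wfdc2. Without KHR-N+/- replicate 3, 4 genes were separate from the other 3 KHR-N+/- arrays, Psca and Wfdc2 in addition to AA467197 and Cldn17. The shares of all genes separated without KHR replicate 4 or KHR-N+/- replicate 3 were not computed, and fewer arrays separate more easily. KHR replicate 4 was also singled out because it was low on these same genes, so the larger counts are no result about the 6 genes.

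The gene pairs of the set had Pearson correlations of 0.46 to 0.94 over the 23 arrays, with a median of 0.84. The genes were picked for falling in the same groups, which by itself raises these correlations. After each group's mean was taken out the correlations were 0.19 to 0.83 (median 0.61). KHR replicate 4 was far below its group on AA467197, Psca, Mal and Cldn17, whose pairs had values of 0.67 to 0.83. Correlations without that array were not computed, so how far it carries these values is not known. The highest correlation over the 23 arrays was between AA467197 and Psca (0.94, and 0.83 within groups), and Wfdc2 took part in the lower ones (0.59 with AA467197). The arrays share normalization and, within a group, genotype. Of the 9726 other genes, those most like AA467197 were Fxyd4, Gch1 and Crabp2 (0.95, 0.92 and 0.92). Psca was most like the arginase gene Arg1 (0.94, and 0.94 within groups), Fxyd4 and Elf5 (0.91 each). Mal was most like the adhesion molecule gene Ceacam1 (0.95), Elf5 (0.93) and Upp1 (0.92). For Cldn17 they were Tlcd3a, the small proline-rich gene Sprr3 and Cidea (0.95, 0.94 and 0.93), and for 2300002M23Rik they were Hsd17b2, the envelope protein gene Ppl and the keratin gene Krt23 (0.93 each). The gene most like Wfdc2 was Notch1 (0.88, and 0.46 within groups), followed by Cd99l2 (0.87) and Pdzrn3 (0.85).

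Loss of 1 copy within the KHR type and the tumour type at 1 copy are comparisons without the Notch1-null tumours. They were tested, although the KHR, KHR-N+/- and KR-N+/- arrays also served as the references when the genes were chosen. A choice on falls from KHR or KR-N+/- favours genes that are high on those arrays, and so favours lower levels in KHR-N+/-. The p-values of the 6 genes are therefore not independent of the choice, and a call among them is no separate support for a fall. From KHR to KHR-N+/- only Wfdc2 passed among the 6 genes, falling by 1.19 (2.28-fold lower, SE 0.30, adjusted p = 0.0462), where 0.432% of all genes passed lower and 0.822% higher. All 4 KHR-N+/- arrays were below all 5 KHR arrays. The call depended on the settings and on single tumours: it passed in 5 of 14 alternatives (adjusted p = 0.0166 to 0.425) and in 9 of the 23 fits without 1 array. Without KHR-N+/- replicate 3, whose Wfdc2 level of 6.81 was the lowest of its group, the difference was -0.93 (adjusted p = 0.243), and without KHR replicate 5 it was -1.06 (adjusted p = 0.0672). The other 5 genes did not pass, with AA467197 at 0.46, Psca at -0.22, Mal at -0.87, Cldn17 at -0.13 and 2300002M23Rik at 0.27 (SE 0.39 to 0.64). When KHR replicates 4 and 5 were both left out, Mal and Cldn17 passed at -1.85 and -1.06 (adjusted p = 0.0238 and 0.0175), and Wfdc2, at -1.12, did not (adjusted p = 0.0525).

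Between the types at 1 copy none of the 6 genes passed in KHR-N+/- against KR-N+/- tumours, where 5.57% of all genes did. The differences were -0.17 for AA467197, -0.53 for Psca, -0.76 for Mal, -0.36 for Cldn17, -0.25 for 2300002M23Rik and -0.59 for Wfdc2, with SEs of 0.30 to 0.64 and adjusted p of 0.277 to 0.896. These intervals are wide: for AA467197 the 95% limits were -1.23 and 0.89. Without Notch1 the types lay further apart on most of the genes, as a description: KHR-N-/- minus KR-N-/- was 2.49 for AA467197, 1.46 for Psca, 1.00 for Mal, 0.75 for Cldn17 and 1.01 for 2300002M23Rik, but -0.58 for Wfdc2. The Wfdc2 value turned to 0.088 when arrays were scaled to a common median (all genes then had a median difference of 0.39), and its dimmer probe gave 0.02. The ranges of the null groups overlapped for all of them except AA467197.

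A list of 78 surface epithelium genes was used to place the 6 genes among keratinocyte genes of the upper layers. This list, like the family and marker lists below, was chosen with earlier results of these data known. Its counts therefore describe the list and are no independent support for the falls. It holds 61 measured genes besides them. In the KR type 26 of the 61 fell without Notch1, 0 rose and 35 did not pass, where 6.63% of all genes fell and 9.62% rose, and the median difference of the list was -0.62. The falls of Sprr3 (-3.31, SE 0.50, adjusted p = 0.000455), the lipid hydroxylase gene Fa2h (-2.67, SE 0.38, adjusted p = 0.000205) and the lining keratin gene Krt4 (-2.16, SE 0.54, adjusted p = 0.00966) were the largest of the list. Krt23 fell by 1.89, the epithelial transcription factor gene Elf5 by 1.69, the protease gene Tmprss11a by 1.66 and the lining keratin gene Krt13 by 1.48, although the other probe of Elf5 gave -0.31 here and -0.42 in the KHR type. With arrays scaled to a common median in place of quantile normalization, 1 gene of the list passed lower, and the share of all genes at that setting is not given here.

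Against intact KHR tumours 7 of the 61 fell and 2 rose in KHR-N-/-, where 2.76% of all genes fell and 4.57% rose, and the list's median was -0.27. The protease gene Tmprss11g fell by 1.54, Fa2h by 1.45, the small proline-rich gene Sprr2f by 1.39 and Elf5 by 1.23. The rises were of Ivl, the involucrin gene of the cornified envelope (1.82, SE 0.32, adjusted p = 0.000897), and of Adh7, an alcohol dehydrogenase gene of surface epithelia (1.34, SE 0.25, adjusted p = 0.00163). Both had also passed higher in KHR-N+/- against KHR (1.56 and 1.53), where no list gene fell. Krt13 at -0.03, Krt4 at 0.72 and Sprr3 at -1.43 did not pass (adjusted p = 0.971, 0.468 and 0.0684). The 7 falls became 21 without KHR replicate 5, 15 without KHR replicate 4, 31 without both and 0 with median scaling. The shares of all genes that passed lower at these settings are not given here, so these counts describe the list alone. Of the 26 genes that fell in the KR type, 6 fell here too (Elf3, Elf5, Fa2h, Il1rn, Sprr2f and Tmprss11g), which is 23.1% of the KR genes and 85.7% of the 7.

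Against KHR-N+/- none of the 61 passed in KHR-N-/- tumours by limma, where 0.103% of all genes passed in either direction. At an unadjusted p under 0.05 there were 14 of the 61, all lower, and 792 of all 9732 genes in either direction. The direction was nevertheless mostly down, with 56 of 61 below 0 and a median of -0.33, where 47.7% of all genes were below 0. All 26 genes called in the KR type were below 0 here as well, and each was closer to 0 than in the KR type, with medians of -1.23 in the KR type and -0.49 in the KHR type. They were selected on the KR values, which favours larger values there. Over the 61 genes the differences in the 2 types, which share no arrays, had a Pearson correlation of 0.73 and a Spearman correlation of 0.69, across genes that are not independent. For the difference between the falls 0 of the 61 passed by limma (12 at an unadjusted p under 0.05, 11 of them with the smaller fall in the KHR type), where 0% of all 9732 genes did (793 at an unadjusted p under 0.05, smallest adjusted p = 0.334). Between the null groups 11 list genes were higher and 1 lower in KHR-N-/- than in KR-N-/-, where 6.31% of all genes were higher and 6.5% lower, and they included Ivl (2.62), Sprr3 (1.58), Cnfn (1.27) and Tmprss11a (1.04).

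**Figure D3:**
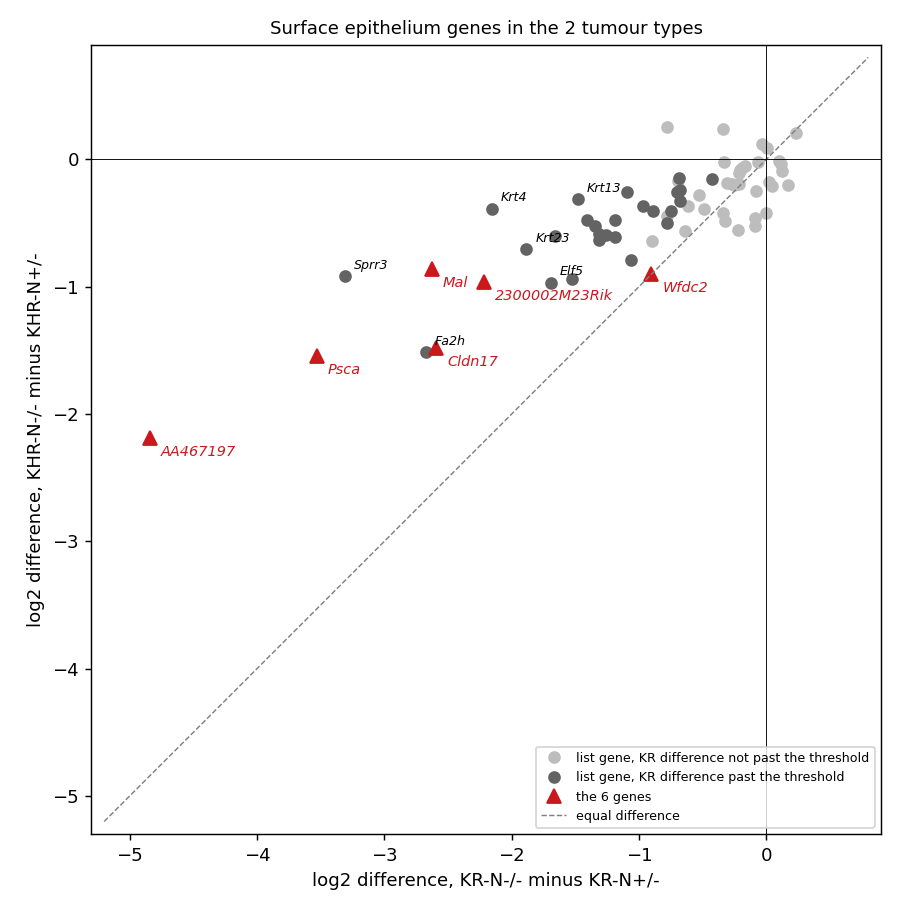
Log2 difference in KHR-N-/- minus KHR-N+/- (vertical axis) against KR-N-/- minus KR-N+/- (horizontal axis) for the 61 surface epithelium genes (circles, dark where the KR difference passed) and the 6 genes (triangles). The dashed line marks equal differences. Of the 6 genes, 5 lie above it and Wfdc2 lies on it, at -0.90 on both axes.

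Most genes of the same families did not pass, and the counts below stand beside 6.63% of all genes lower and 9.62% higher in the KR type, and 2.76% lower and 4.57% higher against KHR. A count of 1 or 2 genes in a family is near these shares. Beside Cldn17, 18 claudin and tight junction genes were measured. In the KR type 3 of them fell, Cldn1 by 1.10, Cldn23 by 0.67 and the occludin gene Ocln by 0.58, and 0 rose, whereas Cldn4 at -0.45 did not pass (adjusted p = 0.0812). Against KHR, Ocln fell by 0.60 and Patj by 0.46 (-0.13 and -0.15 at its other probes) and the other 16 did not pass.

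Of 19 genes of Psca's Ly6 and uPAR family, Ly6g6e (-1.14) and Ly6d (-0.43) fell and Ly6c1 (0.70) rose in the KR type. Against KHR, Lynx1 fell by 0.64, Gpihbp1 rose by 0.72 and Ly6c1 by 0.55. The family's keratinocyte genes Ly6g6c and Lypd3 did not pass in either comparison (0.02 and 0.04 in the KR type, -0.03 and -0.13 in the KHR type).

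Beside Mal, 17 genes of its family and of membrane rafts were measured. In the KR type Fa2h (-2.67), the chemokine-like gene Cklf (-0.79), the glucosylceramide synthase gene Ugcg (-0.63) and Cmtm8 (-0.61, -0.39 at its other probe) fell and the caveolin gene Cav1 rose (0.66). In the KHR type against KHR, Fa2h (-1.45) and the Mal-like gene Mall (-0.60) fell and Flot1 rose (0.53, -0.06 at its other probe). The raft-binding annexin gene Anxa2 did not pass (0.09 and -0.03).

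Of 11 genes with WAP or related inhibitor domains besides Wfdc2, Wfdc18 alone fell in the KR type (-1.02, SE 0.22, adjusted p = 0.00358) and none passed against KHR, where Wfdc18 was at -0.66 (adjusted p = 0.0540). The secreted inhibitor gene Slpi was at -0.49 and 0.23 and Wfdc12 at 0.60 and 0.13, without passing.

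Some marker lists of other layers and cell types also differed between the groups, in the direction of the 6 genes or against it, and others did not. Their part in the falls was not tested. The mean level of the 6 genes per array was 7.32 to 10.22 in KHR, 8.26 to 9.45 in KHR-N+/-, 7.02 to 8.26 in KHR-N-/-, 8.91 to 9.79 in KR-N+/- and 6.12 to 7.01 in KR-N-/-. Over 11 basal keratinocyte markers the mean was higher where the 6 genes were lower: 9.47 to 9.93 in KHR-N-/- against 9.05 to 9.50 in KHR, and 9.86 to 10.14 in KR-N-/- against 9.02 to 9.36 in KR-N+/-. Of the 11, 7 rose and 0 fell in the KR type, and 3 rose and 0 fell against KHR, where 9.62% and 4.57% of all genes rose, while the defining basal keratin genes Krt5 and Krt14 did not pass. Over 16 fibroblast markers the mean was 7.23 to 7.96 in KHR-N-/- against 6.14 to 7.21 in KHR, and 7.26 to 7.51 in KR-N-/- against 6.37 to 6.79 in KR-N+/-, and 13 of the 16 rose against KHR and 10 in the KR type. Over 10 hair keratin markers the mean was 4.64 to 5.22 in KHR-N-/-, 4.71 to 7.05 in KHR, 4.95 to 6.40 in KR-N-/- and 5.75 to 7.16 in KR-N+/-, with 5 of 10 lower against KHR and 2 lower in the KR type. The mean of 9 general epithelial markers went from 8.33 ± 0.09 (SD, n = 5) in KR-N+/- to 8.23 ± 0.12 (SD, n = 4) in KR-N-/-, and from 8.35 ± 0.15 (SD, n = 5) in KHR to 8.12 ± 0.09 (SD, n = 5) in KHR-N-/-. Against KHR 2 of the 9 fell and 0 rose, the splicing factor genes Esrp1 by 0.83 and Esrp2 by 0.39. In the KR type Esrp2 fell by 0.37 and the plakophilin gene Pkp1 rose by 0.26. Over 16 skeletal muscle markers the mean was 7.70 to 8.05 in KHR-N-/- against 6.81 to 7.38 in KHR, with 12 of 16 higher, and 7.83 to 8.87 in KR-N-/- against 8.27 to 9.03 in KR-N+/-, with 1 higher and 2 lower. Over 10 macrophage markers the mean was 5.88 to 6.42 in KHR-N-/- against 5.39 to 5.95 in KHR, with C1qb, C1qc, Cd163 and Mrc1 higher, and 5.42 to 6.02 in KR-N-/- against 5.47 to 5.89 in KR-N+/-, where 0 passed. Over 8 neutrophil markers the mean was 6.33 to 6.74 in KR-N-/- against 6.68 to 7.31 in KR-N+/-, where S100a8 and S100a9, which keratinocytes also express, both fell by 1.09. It was 7.21 ± 0.18 (SD, n = 5) in KHR-N-/- against 7.31 ± 0.40 (SD, n = 5) in KHR, where Retnlg alone passed, at 0.69. Between the null groups 3 of the 8 were higher in KHR-N-/-. Over 10 endothelial markers the mean was 6.14 to 6.34 in KR-N-/- against 5.59 to 5.90 in KR-N+/-, with Cdh5 and Tek higher, and 5.57 to 6.02 in KHR-N-/- against 5.04 to 6.25 in KHR, where 0 passed. None of 4 T and B cell markers passed in either comparison. Of 18 salivary and mucous gland markers on the array 3 were measured, Aqp5, Bhlha15 and Lpo, and none of them passed in either comparison. In KHR-N-/- against KHR-N+/-, 1 of the 11 basal markers rose, and 0 of the fibroblast, hair keratin and muscle markers passed. The medians of these 4 lists were 0.80, 0.84, -0.62 and 0.43, and 0.103% of all genes passed there in either direction.

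**Figure D4:**
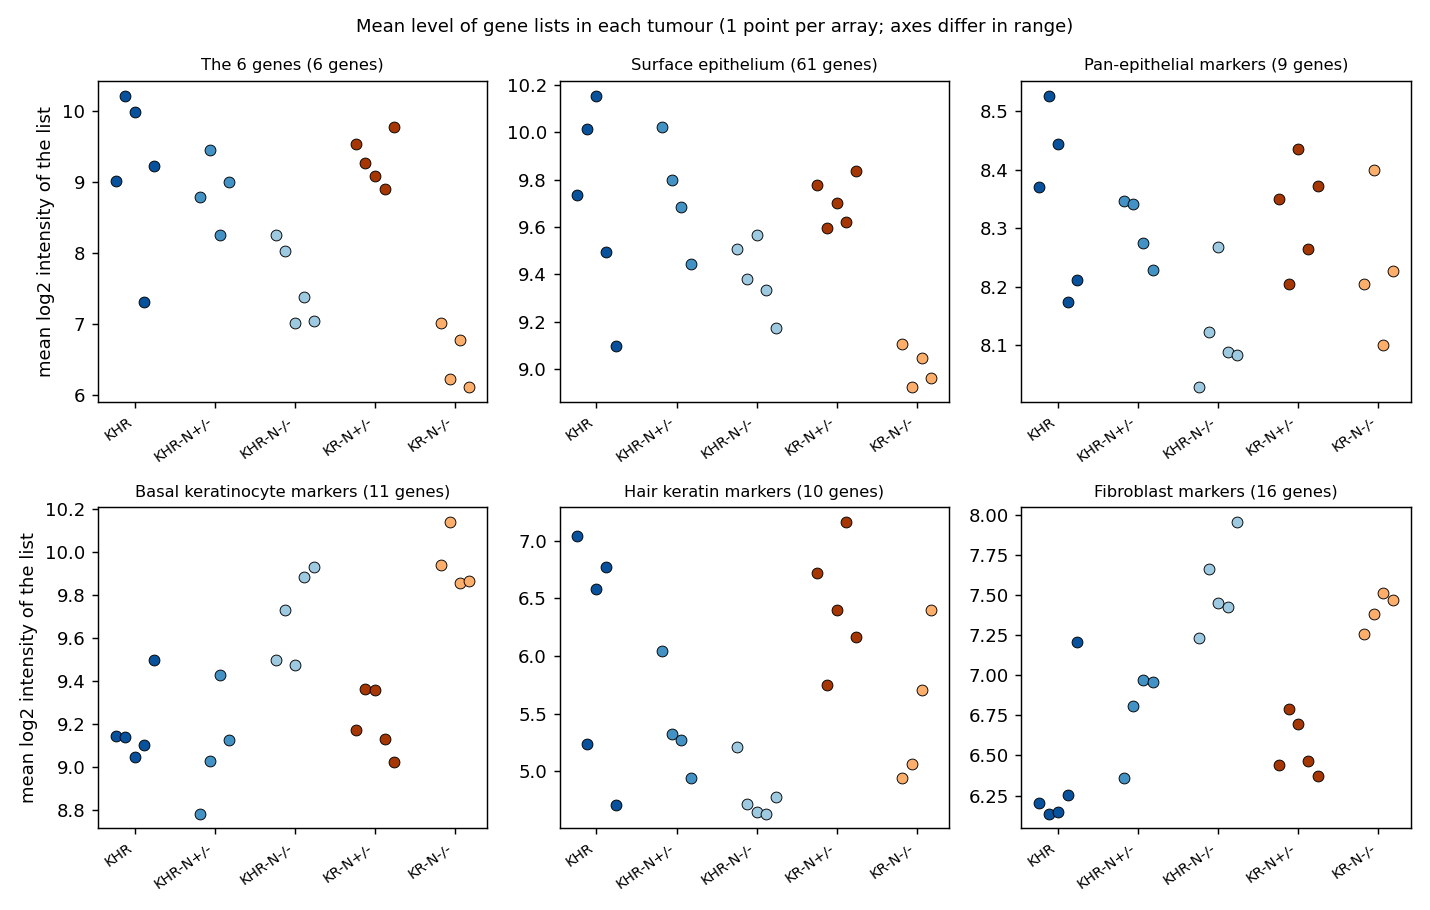
Mean log2 intensity (vertical axes, different ranges) of the 6 genes, the 61 surface epithelium genes and 4 marker lists in each tumour, by group (horizontal axis), with 1 point per array. The 6 genes and the surface list are lowest in KR-N-/-, and the basal keratinocyte and fibroblast lists are higher in both null groups than in KR-N+/-.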

How the data were processed

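Per the labels' protocols, RNA of each tumour was extracted with Trizol, treated with DNase and copied into biotin-labelled cRNA. Per the submitters' processing notes, GenomeStudio and Partek were used. The deposited scanner table holds, per the file headers, a mean bead intensity and a detection p-value for each probe and array, without background subtraction or normalization, judged from its values. Another 23 columns of values (bead standard errors) were not used. The authors also deposited a processed intensity, linear and partly below 0 and made by steps that no source names, which served as an alternative.

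Intensities were corrected with normexp through the detection p-values (offset 16), put on the log2 scale and quantile-normalized (limma 3.58.1, R 4.3.3). Probes with a detection p under 0.05 on at least 4 arrays were kept (13831), and the brightest stood for its gene, which left 9732 genes. One limma model (lmFit, eBayes) held the 5 groups and left 18 residual degrees of freedom. Its p-values were adjusted by Benjamini-Hochberg over all genes and called at 0.05, and each SE is limma's moderated one. The fit was tested on simulated data.

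The 6 genes and all lists were chosen with earlier results of these data known. Besides them the text names the 3 genes most correlated with each, list genes with the largest changes that passed (up to 6 per list and comparison), the 2 brightest of each family, and Krt4, Krt13, Sprr3 and Fa2h. Cnfn, Elf3, Il1rn and genes counted in full were named after their values were seen. Slides are not given in the files. Replicate numbers were not used as pairs in the main model.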

Additional observations from a re-analysis of the deposited data

How the results depend on the processing

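Each value was recomputed under 14 alternatives and without each array in turn (23 fits). The falls of the 6 genes against KR-N+/-, KHR and KHR-N+/- were below 0 in all of them. With no background correction the median KR fall was -1.96 (-2.61 otherwise). The count of the 6 genes passing in KHR-N+/- against KHR, 1 otherwise, was 0 with median scaling, the authors' values, no detection filter, only the groups compared, trend and robust settings, the mean of all kept probes, without KHR replicate 5 and KHR-N+/- replicate 3 together, and with quantile normalization before the log2 step. It was 2 without KHR replicates 4 and 5, and 0 to 1 without single arrays. The last 2 named settings, quantile before log2 and without KHR replicates 4 and 5, were added after seeing the data. The 26 surface epithelium genes lower in the KR type were 1 with median scaling and 20 to 28 without single arrays. The 7 lower against KHR were 0 with median scaling, 29 with array weights, 21 without the first pair of arrays, 31 without KHR replicates 4 and 5, and 5 to 21 without single arrays. How many of all genes passed can change with the setting too, and is given below for the replicate block only.

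Median scaling moved the median of all genes by 0.29 in KHR-N+/- against KHR and by 0.65 in KHR-N+/- against KR-N+/-. Differences that had not passed then changed sign: against KHR to 0.21 for Psca and 0.30 for Cldn17, and against KR-N+/- to 0.75 for AA467197, 0.39 for Psca, 0.12 for Mal, 0.60 for Cldn17, 0.76 for 2300002M23Rik and 0.39 for Wfdc2. Other sign changes of such differences were 0.13 for AA467197 against KR-N+/- and 0.24 for Psca against KHR without the first pair of arrays, and -0.32 for 2300002M23Rik against KHR without KHR replicates 4 and 5. Without single arrays the difference from KHR ran from -0.052 to 0.76 for AA467197, -0.87 to 0.094 for Psca, -0.69 to 0.18 for Cldn17 and -0.0067 to 0.52 for 2300002M23Rik, and that of AA467197 from KR-N+/- from -0.32 to 0.13. The cause of these changes was not tested.

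With a replicate block, Wfdc2 in KHR-N+/- against KHR was -1.15 (adjusted p = 0.0166). With it 31 surface genes fell in the KR type and 7 against KHR, where 786 and 306 of all 9732 genes fell. Arrays with the same number had a median correlation of deviations of 0.05 over 43 pairs (-0.01 over 168 others). The threshold set for a pair was exceeded by 16 of the 43 and 28 of the 168. Whether the numbers pair the tumours is therefore not settled. Mean bead numbers per array ran from 27 to 40.4 and tended to be higher at higher replicate numbers, and whether these follow a batch is not known. AA467197 in KR-N-/- tumours, Mal and the dimmer Wfdc2 probe in both null groups lie near background, which limits the size of their falls.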
